A study of Mus musculus with 12 samples.

Results

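Collagens, the proteins that build the fibers and sheets of the extracellular matrix, were examined in mouse epididymal fat under a low or a high fat diet, with and without Siah2. The members were the array probes whose deposited gene symbol begins with Col, a number, the letter a and a number. This rule took 61 of 25697 probes. Of these, 58 belonged to 36 collagen genes and 3 to Col4a3bp, which encodes a ceramide transporter and is no collagen. The reference table of mouse genes lists 44 collagen genes, and those without a member probe were not analysed here, except Col26a1, whose probe carries an older symbol.

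The fat was taken from male C57BL/6J mice at 20 weeks of age, which had been weaned at 4 weeks onto a diet with 45% or 10% fat. The 4 groups, named here by diet and genotype, were high fat knockout, low fat knockout, high fat wild type and low fat wild type, where knockout means a loss of Siah2 in the whole animal. Siah2 is a ubiquitin ligase, an enzyme that marks other proteins for breakdown. Each group was measured on 3 bead arrays, each hybridised with RNA pooled from several of the group's mice (8 mice in high fat knockout and 10 in every other group), so that the spread between arrays is that between pools and not between animals.

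Collagens consist of alpha chains wound into a helix. Fibrillar collagens, such as types I, III and V, are secreted as procollagens, trimmed at their ends and packed into fibrils that are then crosslinked. Type IV collagen forms the flat network of basement membranes, which surround fat cells and vessels and underlie epithelia. Type VI collagen forms beaded filaments around fat cells, FACIT collagens sit on the surface of fibrils, and multiplexins are collagens of basement membrane zones. Type XVII is a transmembrane collagen of epithelial cells, and type VII forms the fibrils that anchor an epithelium to the tissue beneath it.

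A gene was taken as detected when at least 1 of its probes had a detection p under 0.05 on at least 3 of the 12 arrays. By this rule 28 of the 36 collagen genes were detected, 18 of them on all 12 arrays. Among the fibrillar collagens 9 of 11 genes were detected, 5 of them on every array. All 6 type IV genes were detected, 4 of them on every array. Of the other classes 13 of 19 genes were detected, 9 of them on every array. The genes that were not detected were Col11a1 and Col27a1 among the fibrillar collagens, and Col8a2, Col9a2, Col9a3, Col10a1, Col13a1 and Col19a1 among the others. Detection was set over all groups together, so a gene seen in 1 group alone could pass, and the counts below are over the 28 genes that passed.

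The probe of Siah2, used to check the labels, gave intensities of 55.3, 68.2 and 45.0 in high fat knockout and 101.9, 62.2 and 63.4 in low fat knockout. In wild type it gave 111.3, 78.7 and 89.0 on high fat and 102.1, 121.1 and 91.6 on low fat. The array with the label low fat knockout, replicate 1, therefore lay within the wild type range and apart from its group. It also stood apart in muscle RNA, with a mean log2 value of 10 skeletal muscle genes of 9.22, against 6.79 and 6.87 on the other arrays of its group. Arrays also differed in RNA of the epididymis and seminal vesicles, organs next to the sampled depot. Over 15 epididymal genes, the average of log2 of intensity plus 50 came to 5.79, 9.02 and 5.73 for high fat knockout and 9.47, 7.92 and 10.03 for low fat knockout. It came to 6.24, 6.28 and 6.15 for high fat wild type and 13.11, 12.94 and 11.54 for low fat wild type. By this epididymal average only wild type was cleanly split by diet. The average of 9 seminal vesicle genes split both genotypes by diet. In knockout it was 5.63 to 5.75 on high fat and 8.5 to 8.87 on low fat. In wild type it was 5.61 to 5.85 on high fat and 12.07 to 14.82 on low fat. By the seminal vesicle average the array with the label low fat knockout, replicate 1, lay with its group, at 8.5 against 8.87 and 8.51. In these bulk samples, fewer cells of a type and less RNA per cell cannot be told apart.

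High fat diet in wild type mice was set against low fat diet first. Of the 28 detected collagens 15 rose and 5 fell at an adjusted p under 0.05 (limma on log2 of intensity plus 50, adjusted over 11705 genes), while 22.8% of all genes rose and 16.8% fell, 39.5% together. The median log2 change was 0.59 over the detected collagens and 0.06 over all genes. Of all called genes 57.6% were higher; after cyclic loess normalization 43.9% were, the medians were 0.46 and -0.06, and the same 20 collagens were called. By class, of 9 fibrillar collagens 6 rose and none fell, with a median of 1.06, of 6 type IV collagens 2 rose and 3 fell, with a median of -0.45, and of 13 others 7 rose and 2 fell, with a median of 0.57. The arrays of the diets did not overlap, with high fat above, for 15 collagens (29.2% of all genes) and with high fat below for 5 (22.3%). The type IV genes that rose were bright and those that fell were dim, as given below. With detection on all 12 arrays required, 14 collagens rose and 1 fell, as did 2327 and 1331 of 8817 genes. The medians were then 1.09 over these collagens and 0.1 over all these genes.

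**Figure D1:**
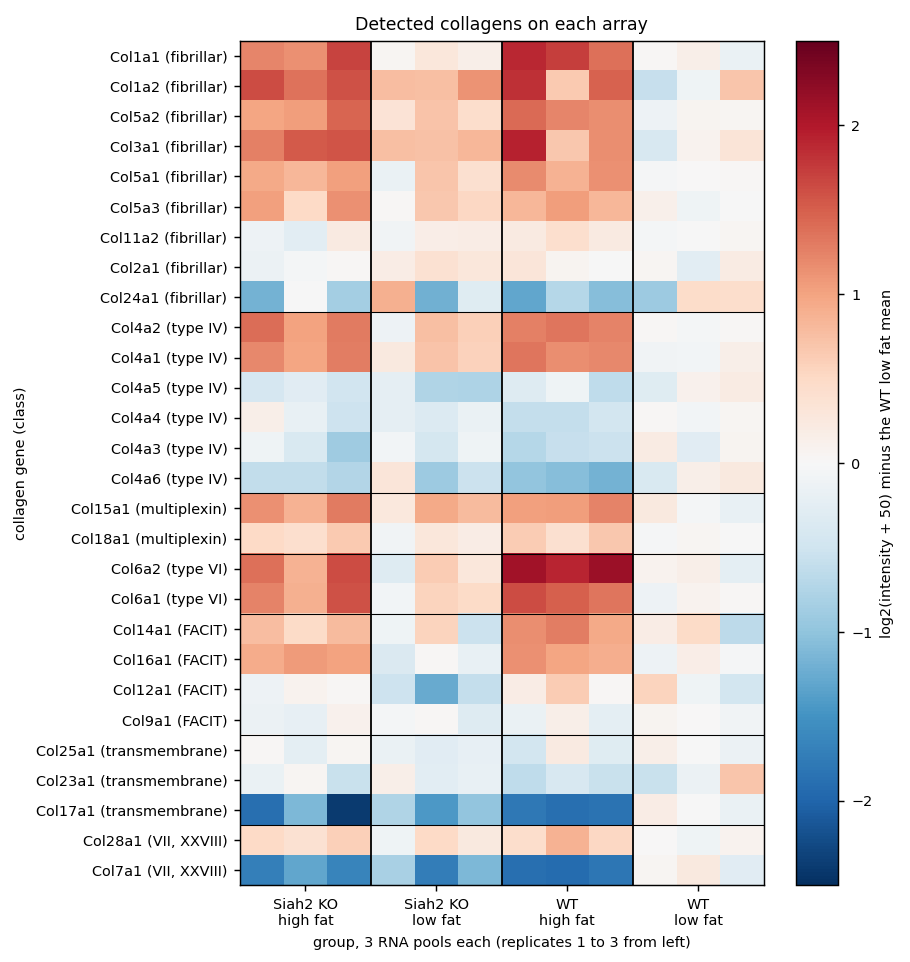
Each row is a detected collagen with its class and each column an array, 3 RNA pools per group; colors give log2 of intensity plus 50 minus the mean of low fat wild type. Most fibrillar, type VI and multiplexin genes are red on the high fat arrays of both genotypes, and Col7a1 and Col17a1 are blue on the arrays of the other 3 groups.

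Type I collagen is the main fibrillar collagen of most connective tissues, and its alpha 1 chain, Col1a1, had intensities of 2618, 2343 and 1835 in high fat wild type, against 686.7, 749.9 and 599.1 on low fat. The lowest array on high fat stood above the highest on low fat. Col1a1 rose by a log2 change of 1.66 (SE 0.17, adjusted p = 9.85e-05), or 3.16-fold. Its partner chain Col1a2 read 2438, 1059 and 1902 on high fat, against 420.9, 603.9 and 1085 on low fat. It rose by 1.32 (SE 0.33, adjusted p = 0.0101), although replicate 2 on high fat lay below replicate 3 on low fat and the groups thus overlapped.

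Col3a1, the chain of type III collagen, which often shares fibrils with type I, stood at 9663, 4014 and 5675 in high fat wild type, against 1876, 2650 and 3125 on low fat. The groups did not overlap, but the spread on high fat was wide, at 6450 ± 2903 (SD, n = 3), against 2550 ± 630.5 on low fat. Col3a1 rose by 1.26 (SE 0.28, adjusted p = 0.00509). A second probe of Col3a1, detected on 7 arrays, changed by 1.05 (SE 0.21, adjusted p = 0.00349 in a fit over 15765 probes).

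The type V chains, which are incorporated into type I fibrils and help set their width, rose as well. Col5a1 averaged 6610 ± 740.4 on high fat and 3121 ± 64.9 on low fat (SD, n = 3 each), a log2 change of 1.06 (SE 0.18, adjusted p = 0.00152). Col5a3 averaged 204.7 ± 21.3 and 85.9 ± 11.7 in the same order, a change of 0.91 (SE 0.19, adjusted p = 0.00451). Col5a2 read 108.6, 89.8 and 83.5 on high fat, against 4.82, 12.4 and 11.9 on low fat. All 3 arrays on low fat lay under 27.9, an approximate detection level on this scale, so Col5a2 was at least 3.35-fold higher on high fat (adjusted p = 0.000184). The remaining fibrillar genes were dim and did not pass the test. Col11a2 averaged 43.7 ± 7.31 on high fat and 26.6 ± 3.01 on low fat, Col2a1 17.8 ± 7.52 and 12.7 ± 9.89, and Col24a1 1.57 ± 10.6 and 62.5 ± 49.8.

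The promoters of Col1a2 and Col3a1 are shown because these genes rose together among the fibrillar collagens. Each run gives the 250 bases before the annotated start, 5′ to 3′ on the gene's strand, from RefSeq for GRCm38.p6. Capitals mark matches, on either strand, to CCAAT (the CCAAT box), GGGCGG (the GC box), TATAAA (the TATA box) or TGANTCA (the AP-1 site). The Col1a2 window lies at chr6:4505368-4505617 on the plus strand and the Col3a1 window at chr1:45311288-45311537 on the plus strand.
Col1a2: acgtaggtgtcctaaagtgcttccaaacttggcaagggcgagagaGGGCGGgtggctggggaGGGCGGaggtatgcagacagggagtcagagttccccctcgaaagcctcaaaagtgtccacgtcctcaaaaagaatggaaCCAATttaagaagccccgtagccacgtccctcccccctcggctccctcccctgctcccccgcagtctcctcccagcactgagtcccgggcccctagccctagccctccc
Col3a1: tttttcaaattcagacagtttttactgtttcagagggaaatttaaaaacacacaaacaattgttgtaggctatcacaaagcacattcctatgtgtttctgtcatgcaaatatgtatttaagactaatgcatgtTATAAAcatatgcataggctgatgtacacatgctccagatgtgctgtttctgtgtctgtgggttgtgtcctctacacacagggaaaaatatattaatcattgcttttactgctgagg
Col1a2 held 1 match to CCAAT and 2 to GGGCGG, and Col3a1 held 1 match to TATAAA. Promoter entries were found for 29 of the 36 collagen genes. Over the 14 promoters of 12 collagens that rose, CCAAT occurred in 42.9%, GGGCGG in 57.1%, TATAAA in 7.14% and TGANTCA in 7.14%. The shares were 44%, 56%, 12% and 4% over 25 promoters of 22 detected collagens. The shares over all 32851 promoters were 33.8%, 32.7%, 12.4% and 6.75%. A match describes the letters of this window and is no evidence of binding.

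Among the 28 genes, the highest fitted log2 change was that of a type VI chain. Col6a2 read 2538, 2213 and 2630 in high fat wild type, against 597.1, 619.9 and 460.5 on low fat, and Col6a1 read 17658, 16047 and 14524, against 5201, 6069.9 and 5844. Neither gene had overlapping groups. Col6a2 rose by 2.05 (SE 0.25, adjusted p = 0.00021), or 4.14-fold, and Col6a1 by 1.49 (SE 0.2, adjusted p = 0.00038). Of the 3 kept probes of Col6a1, the other two changed by 1.16 and 1.39.

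Among FACIT collagens, Col16a1 stood at 3051, 2741 and 2577 on high fat, against 1225, 1516 and 1322 on low fat, and rose by 1.02 (SE 0.13, adjusted p = 0.000247). Col14a1 read 265.8, 296.3 and 224.2, against 110.4, 146.9 and 40.6, and rose by 1.13 (SE 0.3, adjusted p = 0.0136). The groups of both genes were apart. Col12a1, a FACIT collagen of dense connective tissue, averaged 522.8 ± 127.8 on high fat and 432.6 ± 176.3 on low fat and did not pass (adjusted p = 0.427). Col9a1, best known from cartilage, was close to the detection level at 17.2 ± 10.1 and 21.3 ± 4.09 and did not pass either (adjusted p = 0.625).

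The multiplexins rose too. Col15a1 averaged 7144 ± 598.6 on high fat and 3310.1 ± 510.4 on low fat, a change of 1.11 (SE 0.19, adjusted p = 0.00134). Col18a1, whose cleaved end is endostatin, averaged 6638 ± 660.4 and 4428 ± 133.6, a change of 0.57 (SE 0.12, adjusted p = 0.00459). Col28a1 averaged 80.5 ± 21.7 on high fat and 34.8 ± 5.68 on low fat, a change of 0.61 (SE 0.16, adjusted p = 0.0132).

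The 6 type IV genes lie in the mouse genome as 3 head-to-head pairs, and in wild type only the genes of the pair Col4a1 and Col4a2 rose with high fat. These genes, which encode the chains of the network found in most basement membranes, have annotated starts 21 bases apart on opposite strands in RefSeq. The probe of Col4a1 read 20980.3, 18485 and 19120 on high fat, against 7799, 7932 and 9173 on low fat, and Col4a2 read 12859.5, 13594 and 12814, against 5474, 5162 and 5447. On both probes every array on high fat exceeded every array on low fat. Col4a1 rose by 1.23 (SE 0.14, adjusted p = 0.000147) and Col4a2 by 1.28 (SE 0.2, adjusted p = 0.00083).

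The other two type IV pairs, whose chains are restricted to particular epithelia and other specialised basement membranes, did not rise. Col4a3 read 12.2, 19.0 and 20.4 on high fat, against 69.0, 34.2 and 57.7 on low fat, and was at least 1.85-fold lower (adjusted p = 0.0321). Its neighbour Col4a4 read 43.8, 43.8 and 51.8, against 94.0, 83.5 and 95.4, and fell by 0.55 (SE 0.15, adjusted p = 0.013). Averaging both kept probes of Col4a4 gave -0.30 (adjusted p = 0.0616), since the other probe, detected on 3 arrays, changed by -0.06. Col4a6 read 23.7, 20.0 and 14.0 on high fat, against 62.6, 110.5 and 122.1 on low fat, and was at least 3.39-fold lower (adjusted p = 0.00855). Its neighbour Col4a5, whose annotated start lies 1343 bases away, averaged 240.1 ± 53.4 and 322.1 ± 65.1, with overlapping groups, and did not pass (log2 change -0.36, SE 0.19, adjusted p = 0.16).

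The falls with the largest log2 change among the collagens were those of Col7a1 and Col17a1. Col7a1 read 23.9, 21.8 and 28.1 in high fat wild type, against 232.4, 270.6 and 173.1 on low fat. Col17a1 read 35.0, 28.6 and 31.6, against 281.3, 238.2 and 210.9. All arrays on high fat were near the detection level and far below those on low fat. Col7a1 fell by 1.87 (SE 0.22, adjusted p = 0.000177) and Col17a1 by 1.84 (SE 0.28, adjusted p = 0.000752), and the other two kept probes of Col17a1 changed by -0.72 and -1.50. A second probe of Col7a1 was detected on 0 arrays and not kept, reading 4.98, 5.41 and 15.2 in low fat wild type. The transmembrane collagens Col23a1 and Col25a1 did not pass, with log2 changes of -0.53 (adjusted p = 0.151) and -0.18 (adjusted p = 0.431).

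The promoters of Col7a1 and Col17a1 are given for comparison with those of the genes that rose, with capitals as above. The Col7a1 window lies at chr9:108953336-108953585 on the plus strand and the Col17a1 window at chr19:47692043-47692292 on the minus strand.
Col7a1: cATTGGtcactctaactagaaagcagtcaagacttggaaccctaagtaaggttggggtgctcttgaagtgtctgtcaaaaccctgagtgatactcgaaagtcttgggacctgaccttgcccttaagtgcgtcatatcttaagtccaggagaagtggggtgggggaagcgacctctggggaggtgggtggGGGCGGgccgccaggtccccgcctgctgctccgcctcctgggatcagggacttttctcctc
Col17a1: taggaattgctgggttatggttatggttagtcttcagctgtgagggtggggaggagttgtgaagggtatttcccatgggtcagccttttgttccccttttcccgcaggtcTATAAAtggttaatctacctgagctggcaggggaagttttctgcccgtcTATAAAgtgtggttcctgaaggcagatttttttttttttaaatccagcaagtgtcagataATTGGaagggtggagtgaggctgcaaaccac
Col7a1 held 1 match to CCAAT and 1 to GGGCGG. Col17a1 held 1 match to CCAAT and 2 to TATAAA. Among the 4 promoters of collagens that fell, CCAAT occurred in 2, GGGCGG in 2, TATAAA in 1 and TGANTCA in 0.

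Reproductive tract RNA moved with these diet changes. All 15 epididymal and all 9 seminal vesicle genes fell on high fat in wild type, and 4 of 7 smooth muscle genes fell, while 16.8% of all genes did. Within high fat knockout, the array with the high epididymal mean, replicate 2, had a Col17a1 intensity of 84.8, against 29.1 and 5.73 on the other arrays, and a Col7a1 intensity of 60.1, against 33.7 and 36.9. Within low fat knockout, replicates 1 to 3 read 123.9, 58.2 and 97.8 for Col17a1 and 104.4, 32.2 and 74.8 for Col7a1. Replicate 2, with the lowest epididymal mean, was lowest for both, but replicate 3, with the highest, was highest for neither. The mean of 7 smooth muscle genes was 10.31, 8.28 and 9.14 on these arrays, in the order of both collagens. In high fat knockout it was 8.12, 9.3 and 7.77, in the order of Col17a1 but not of Col7a1. In low fat wild type it was 8.73, 10.06 and 10.76, the reverse of the order of Col17a1 and not that of Col7a1. Neither collagen followed its order in high fat wild type, at 7.9, 8.21 and 8.23. The part of smooth muscle RNA was not tested. With the epididymal mean as a covariate none of the 28 collagens was called in any comparison. In that fit the diet effect in wild type was 1.29 (SE 0.43, adjusted p = 0.69) for Col1a1, 0.64 (SE 0.3, adjusted p = 0.881) for Col4a1, -0.70 (SE 0.41, adjusted p = 0.945) for Col7a1 and -0.05 (SE 0.38, adjusted p = 0.998) for Col17a1. The median standard error over the collagens was 0.44 there, against 0.19 without the covariate, and only 2 of 11705 genes were called. The covariate did not overlap between the wild type diets, so diet and tract RNA cannot be told apart in wild type by this fit.

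**Figure D2:**
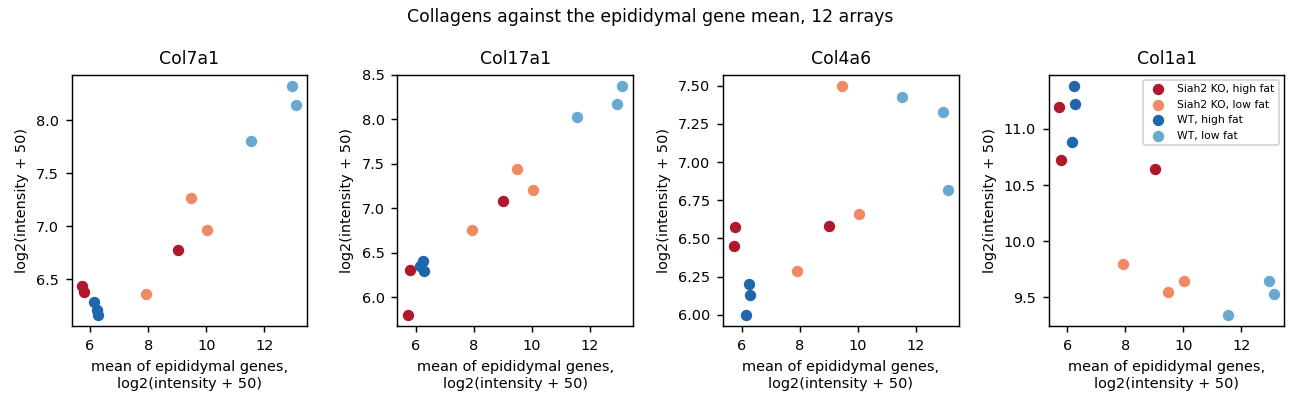
Log2 of intensity plus 50 of 4 collagens (vertical axes) against the mean of 15 epididymal genes (horizontal axes), each point an array and each color a group. Col7a1 and Col17a1 are highest on the 3 arrays of low fat wild type, which also have the highest epididymal means; Col1a1 is highest on high fat arrays of both genotypes, including knockout replicate 2 with an epididymal mean of 9.02.

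Markers of other cell types of fat were counted for diet in wild type, where 22.8% of all genes rose and 16.8% fell. Of 9 macrophage genes 8 rose, with a median of 2.08, among them Cd68 by 3.74 and Tyrobp by 3.27. Of 10 genes of fibroblasts and preadipocytes, the main producers of fibrillar collagens, 7 rose and 1 fell, with a median of 0.65, and the mean log2 value of the list was 10.33 to 10.41 on high fat and 9.84 to 10.02 on low fat. Thy1 rose by 0.86, Mfap5 by 1.65 and Pdgfrb by 1.06, while Dpp4 fell by 1.20. Of 10 endothelial genes 6 rose, with a median of 0.58 and list means of 10.46 to 10.78 on high fat and 9.97 to 10.1 on low fat. Of 8 adipocyte genes 2 rose and 1 fell, shares close to those over all genes, with a median of 0.33. Of 6 genes of the mesothelium, the cell layer on the fat surface, none rose and 2 fell. Their median was 0.08 and their lowest change -2.57. The part of these cell types in the collagen changes was not tested.

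High fat diet in knockout mice was set against low fat diet in the same way. Of the 28 collagens 7 rose and none fell, while 3.56% of all genes rose and 0.82% fell, 4.38% together. The median log2 change was 0.42 over the 28 collagens and -0.01 over all genes. At an unadjusted p under 0.05 there were 16 collagens, and 17% of all genes. Arrays did not overlap for 12 collagens that were higher (12.2% of all genes) and for 1, Col2a1, that was lower (9.83%). Of the classes, 2 of 9 fibrillar, 2 of 6 type IV and 3 of 13 other collagens rose, with medians of 0.62, 0.13 and 0.40. Markers moved here as well: 6 of 9 macrophage genes rose, with a median of 1.08, and 5 of 9 seminal vesicle genes and 1 of 15 epididymal genes fell. The seminal vesicle means were 5.63 to 5.75 on high fat and 8.5 to 8.87 on low fat. These means did not overlap, so diet and seminal vesicle RNA cannot be told apart in knockout. Of 10 fibroblast genes 1, Thy1, rose, and no endothelial gene passed; the part of these cells was not tested. All 7 genes had also risen in wild type mice, as had 98.1% of the 417 genes of any kind that rose in knockout. The groups set against each other share no arrays, but both tests use an estimate of the spread over all 12 arrays and are not independent.

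Col1a1 read 1643, 1553 and 2288 in high fat knockout, against 698.2, 838.3 and 752.3 on low fat, and rose by 1.19 (SE 0.17, adjusted p = 0.0059). Col16a1 read 2619.8, 2877 and 2743, against 1039.6, 1387 and 1177, and rose by 1.17 (SE 0.13, adjusted p = 0.00203). Both genes kept their groups well apart. Col6a2 read 1520.5, 1061 and 1816, against 436.7, 893.1 and 681.8, and rose by 1.09 (SE 0.25, adjusted p = 0.0321). Col6a1 averaged 13822 ± 3385 on high fat and 7248 ± 1566 on low fat, a rise of 0.92 (SE 0.2, adjusted p = 0.0267). On the array with the label low fat knockout, replicate 1, both type VI genes were at the lowest value of their group.

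Col4a1 read 18999.7, 16499 and 20249 in high fat knockout, against 9832, 13594 and 12429 on low fat, and rose by 0.64 (SE 0.14, adjusted p = 0.0264). Col4a2 read 14215, 10789 and 13275, against 4931, 9063 and 8118, and rose by 0.82 (SE 0.2, adjusted p = 0.0412). Neither probe had overlapping groups. Col5a2 averaged 84.2 ± 24.6 on high fat and 34.8 ± 12.1 on low fat, a rise of 0.66 (SE 0.15, adjusted p = 0.0331).

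Several collagens that had risen in wild type kept the sign in knockout without passing the test. Col3a1 averaged 6940 ± 787.4 on high fat and 4305 ± 162.2 on low fat (log2 change 0.68, SE 0.28, adjusted p = 0.239), with groups apart. Col1a2 averaged 1983 ± 199 and 1259 ± 196.7 (0.64, SE 0.33, adjusted p = 0.367), and Col5a1 5988 ± 417.3 and 3998 ± 1151 (0.62, SE 0.18, adjusted p = 0.0969). For Col15a1, Col18a1, Col14a1, Col5a3 and Col28a1 the changes were 0.44, 0.40, 0.71, 0.48 and 0.28, with adjusted p-values of 0.256, 0.109, 0.266, 0.227 and 0.434. Col12a1, at 412.7 ± 35.7 and 223.7 ± 71.1, changed by 0.79 (SE 0.27, adjusted p = 0.146). Col17a1 changed by -0.74 (SE 0.28, adjusted p = 0.186) and Col7a1 by -0.33 (SE 0.22, adjusted p = 0.501). The other 10 genes changed by -0.47 to 0.19 on the log2 scale.

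The count of 7 moved when single arrays were left out. It was 2, Col1a1 and Col16a1, without the array with the label low fat knockout, replicate 1, where 177 of all genes were called, against 513 with every array. It was also 2, these same genes, without replicate 1 or 3 of high fat knockout or without replicate 3 of low fat knockout, and 2 when these 2 groups alone were fitted, while 134 to 256 of all genes were called. Without replicate 2 of high fat knockout it was again 7 (403 of all genes), of which 6 rose and Col17a1 fell by 1.08 (adjusted p = 0.0285).

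**Figure D3:**
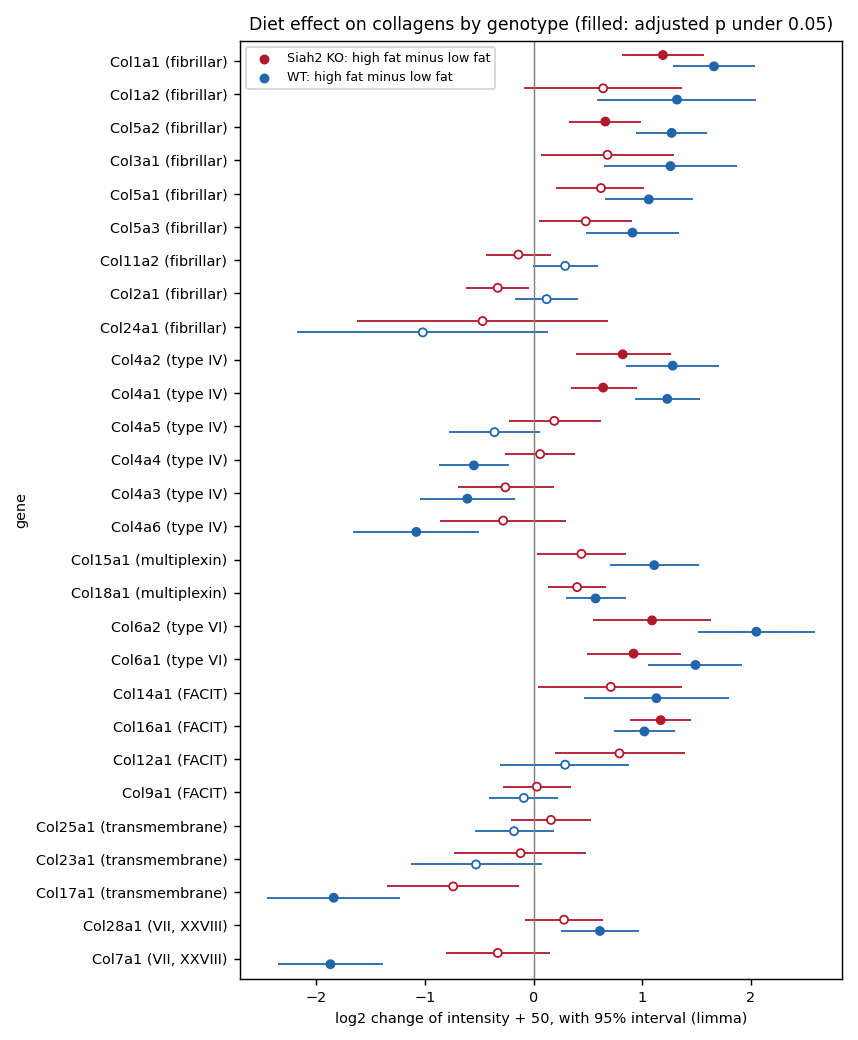
Log2 change of intensity plus 50 from low to high fat for the 28 detected collagens, with 95% intervals from limma, in knockout (red) and in wild type (blue); filled points pass an adjusted p of 0.05. The wild type point lies farther from 0 than the knockout point for 14 of the 15 genes that rose in wild type and for all 5 that fell, while Col16a1 shows the opposite order.

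The difference between the diet effects, knockout minus wild type, was tested directly, and no collagen passed (0.103% of all genes did, 0.0598% with a positive and 0.0427% with a negative difference), with 9 at an unadjusted p under 0.05, as had 20.5% of all genes. Of the 15 collagens that rose in wild type 14 had a smaller change in knockout. None of the 5 that fell in wild type fell as far in knockout, where Col4a4 changed by 0.06. These directions are given as a description, since the wild type values both chose the genes and enter the difference. The same counts over all genes called in wild type were not made. The median difference was -0.38 over the 28 collagens and -0.08 over all genes. It was positive for 12 collagens and for 4856 of 11705 genes. The difference was -0.96 (95% interval -1.72 to -0.19, adjusted p = 0.178) for Col6a2, -0.59 (-1.02 to -0.16, adjusted p = 0.157) for Col4a1 and -0.47 (-1.0 to 0.07, adjusted p = 0.298) for Col1a1. For Col7a1 it was 1.54 (SE 0.31, 95% interval 0.86 to 2.22, adjusted p = 0.0902), and for Col17a1 1.10 (0.23 to 1.96, adjusted p = 0.173). Without the array with the label low fat knockout, replicate 1, Col7a1 alone passed, at 1.74 (adjusted p = 0.0483), and it alone passed without replicate 3 of low fat wild type, at 1.68 (adjusted p = 0.044). In these fits 124 and 101 of all genes passed, against 12 with every array.

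Knockout was then set against wild type under the low fat diet. Col4a1 rose, and Col7a1 and Col17a1 fell, among the 28 collagens, while 4.7% of all genes rose and 3.18% fell, 7.88% together. The median log2 change was 0.10 over the collagens and 0.04 over all genes. Col4a1 averaged 11952 ± 1926 in knockout and 8301 ± 757.5 in wild type (SD, n = 3 each), a change of 0.51 (SE 0.14, adjusted p = 0.0469). Col7a1 averaged 70.5 ± 36.3 and 225.4 ± 49.1, a change of -1.22 (SE 0.22, adjusted p = 0.0213). Col17a1 averaged 93.3 ± 33.1 and 243.5 ± 35.5, a change of -1.05 (SE 0.28, adjusted p = 0.0447). The groups did not overlap for any of the 3. After cyclic loess normalization only Col7a1 and Col17a1 were called, and 38.3% of all called genes were higher, against 59.7% without it. All 9 seminal vesicle genes and 7 of 15 epididymal genes fell in the same comparison. With the epididymal mean as a covariate no collagen and 4 of 11705 genes were called. The median standard error over the collagens was then 0.28, against 0.19. The epididymal means were 7.92 to 10.03 in knockout and 11.54 to 13.11 in wild type. They did not overlap, so genotype and tract RNA cannot be told apart on low fat by this fit.

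The largest changes on low fat that did not pass were those of Col1a2 (0.88, SE 0.33, adjusted p = 0.114), Col12a1 (-0.79, SE 0.27, adjusted p = 0.0901), Col3a1 (0.77, SE 0.28, adjusted p = 0.101), Col15a1 (0.67, SE 0.19, adjusted p = 0.0519) and Col4a5 (-0.58, SE 0.19, adjusted p = 0.0829). Col5a2, under the detection level on all low fat wild type arrays, was at least 1.2-fold higher in knockout (adjusted p = 0.0635). Col1a2, Col3a1, Col15a1 and Col5a2 were higher on every knockout array than on every wild type array. For Col1a1 the values were 763 ± 70.7 and 678.6 ± 75.7, a change of 0.16 (SE 0.17, adjusted p = 0.572). The arrays did not overlap for 5 collagens that were higher (19.1% of all genes) and 5 that were lower (13.9%).

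Without the array with the label low fat knockout, replicate 1, 9 collagens were called, as were 1553 of all genes, against 922 with every array. Col15a1 (0.87), Col4a2 (0.67), Col4a1 (0.65), Col5a1 (0.54) and Col5a2 were then higher and Col7a1 (-1.43), Col17a1 (-1.21), Col4a5 (-0.76) and Col4a6 (-0.72) lower, with adjusted p-values between 0.00999 and 0.0449. No collagen was called without replicate 2 or 3 of low fat knockout or without replicate 1 or 2 of low fat wild type, and Col7a1 alone was called without replicate 3 of low fat wild type, replicate 1 of high fat knockout, or replicate 2 or 3 of high fat wild type. Of all genes 28 to 168 were called in the fits without a called collagen, and 508 to 848 in those with Col7a1 alone.

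Knockout set against wild type under the high fat diet gave no called collagen in limma (0.0854% of all genes were called, all of them lower), and 3 collagens, and 11.5% of all genes, had an unadjusted p under 0.05. The median log2 change was -0.02 over the collagens and -0.02 over all genes. Col6a2 averaged 1466 ± 380.3 in knockout and 2460.4 ± 219 in wild type, a change of -0.76 (SE 0.25, 95% interval -1.3 to -0.21, adjusted p = 0.297), and its groups did not overlap. In all, 2 collagens, Col7a1 and Col4a6, were higher on every knockout array (6.35% of all genes) and 2, Col6a2 and Col14a1, were lower (11.8%). Col4a4 changed by 0.37 (adjusted p = 0.38) and Col11a2 by -0.34 (adjusted p = 0.38). Col1a1 averaged 1828 ± 401 and 2265 ± 397.2, a change of -0.31 with a 95% interval of -0.69 to 0.07. The interval was -0.38 to 0.23 for Col4a1, -0.48 to 0.39 for Col4a2 and -0.3 to 0.26 for Col16a1, so these data leave room for modest differences in either direction. The interval of Col3a1, -0.42 to 0.8, was wider.

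Averaged over both diets, the knockout effect also passed for no collagen (2.77% of all genes passed, 1.69% higher and 1.08% lower), and 8, and 22.1% of all genes, had an unadjusted p under 0.05. The largest values were 0.55 (SE 0.23, adjusted p = 0.204) for Col1a2, -0.54 (SE 0.19, adjusted p = 0.132) for Col12a1 and -0.51 (SE 0.2, adjusted p = 0.162) for Col17a1. For Col1a1 and Col4a1 the averages were -0.07 (SE 0.12, adjusted p = 0.773) and 0.22 (SE 0.1, adjusted p = 0.215). Without replicate 1 of high fat wild type, Col3a1 alone passed, at 0.65 (adjusted p = 0.0437), with 406 of all genes, against 324 with every array. With the array with the label low fat knockout, replicate 1, and replicate 2 of high fat knockout both left out, 5 passed (511 of all genes), namely Col15a1 (0.50), Col5a3 (0.39), Col4a2 (0.37), Col7a1 (-0.62) and Col17a1 (-0.75).

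**Figure D4:**
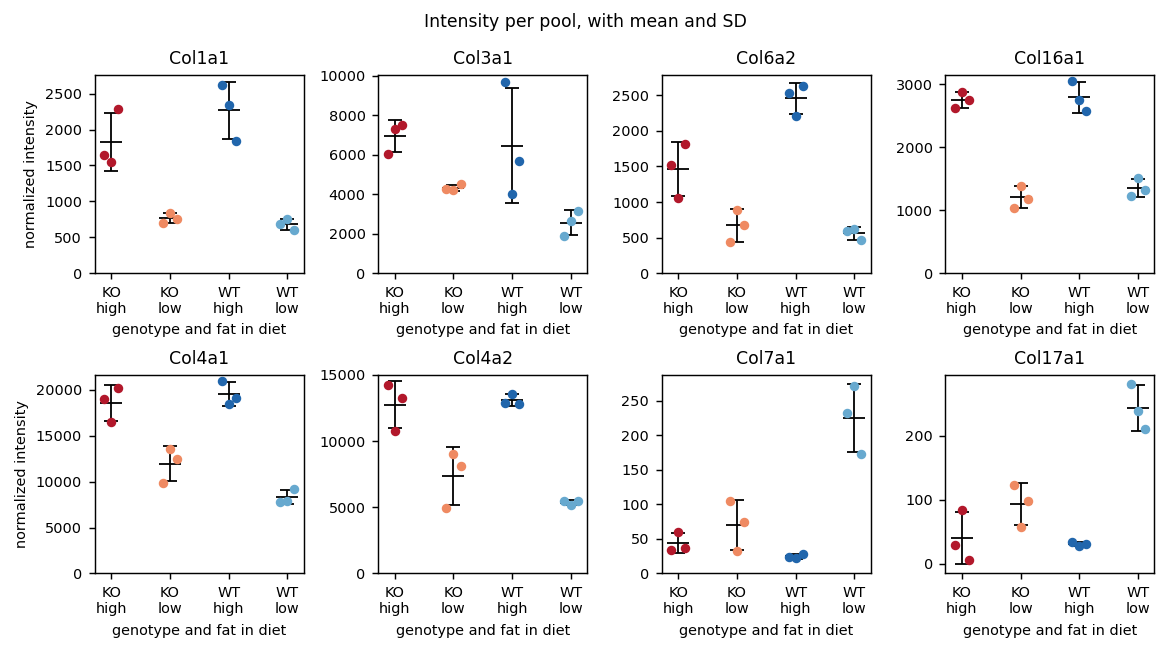
Normalized intensity of 8 collagens in each group, points being single RNA pools and bars the mean and SD of 3. High fat stands above low fat in both genotypes for Col1a1, Col16a1, Col4a1, Col4a2 and Col6a2, whereas Col7a1 and Col17a1 are high in low fat wild type, at 225.4 and 243.5 on average.

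Genes that process or accompany collagen were counted in the same way for high fat diet in wild type, where 22.8% of all genes rose and 16.8% fell. Of 16 genes of collagen hydroxylation and folding 11 rose and 1 fell, with a median of 0.65. Serpinh1, the chaperone of the collagen helix, read 1361, 1394 and 1588 on high fat, against 640.5, 409.6 and 438.6 on low fat, and rose by 1.48 (SE 0.16, adjusted p = 0.000126). Plod1, a lysyl hydroxylase, rose by 1.16, Tmem38b, a channel of the endoplasmic reticulum, by 0.95, and Colgalt1, which adds galactose to collagen, by 0.75. The gene that fell, named after its value was seen, was P3h4 (-1.36, SE 0.23, adjusted p = 0.00139).

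All 4 genes of procollagen cleavage and all 4 of crosslinking rose. Pcolce2, an enhancer of the cleavage, averaged 4077 ± 551 on high fat and 777.9 ± 328.9 on low fat and rose by 2.38 (SE 0.25, adjusted p = 0.000112). Pcolce, a related enhancer, rose by 1.23, Adamts2, which removes the amino-terminal end, by 1.09, and Bmp1, which removes the carboxy-terminal end, by 0.95. The lysyl oxidases, which start the crosslinks, rose by 1.46 for Lox (SE 0.27, adjusted p = 0.00202) and by 1.08 for Loxl1 (SE 0.18, adjusted p = 0.00118). Pxdn, a peroxidase that crosslinks type IV collagen, rose by 0.71 and the transglutaminase Tgm2 by 0.65.

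Of 7 collagen receptors and uptake genes 3 rose, which were the integrin chain Itga11 (1.54), the receptor kinase Ddr2 (1.04) and Lair1, an inhibitory receptor of immune cells. Lair1 lay under the detection level on low fat and was at least 1.15-fold higher on high fat (adjusted p = 0.00199). Of 10 proteoglycans and matricellular proteins that associate with fibrils 6 rose, among them Lum (2.03), Sparc (1.44), Thbs2 (1.41) and Bgn (0.70). Fmod alone fell, by 0.80, and was named after its value was seen. Among 12 laminin, nidogen and other basement membrane genes 7 rose and 2 fell. Lamb3 rose by 1.23, Hspg2, the gene of perlecan, by 1.16 and Lamc1 by 1.0. Lama1, a laminin chain of epithelial basement membranes, read 0.47, 4.15 and 17.5 on high fat, against 452.2, 564.5 and 659.9 on low fat, and was at least 19.8-fold lower. Agrn, a proteoglycan of basement membranes named after its value was seen, fell by 0.54.

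In knockout mice, where 3.56% of all genes rose and 0.82% fell with high fat, against 22.8% and 16.8% in wild type, 3 hydroxylation and folding genes rose, Serpinh1 (0.80), Plod1 (0.67) and Tmem38b (0.54). Pcolce2 rose by 1.60 and Pcolce by 0.83 of the cleavage genes, Loxl1 by 0.81 of the crosslinking genes, Lum by 1.52 and Sparc by 0.70 of the fibril-associated genes and Lamb3 by 1.04 of the basement membrane genes. None of these genes fell, and no receptor gene passed, Itga11 changing by 0.53 (adjusted p = 0.226) and Lair1 by 0.34 (adjusted p = 0.223). Knockout was also set against wild type under the low fat diet, where 4.7% of all genes rose and 3.18% fell. Serpinh1 rose by 0.59, Sparc by 0.73, Lamb1 by 1.25 and Lamc1 by 0.52. P3h4 fell by 0.85, Fmod by 0.79 and P4hb by 0.43. On high fat, where 0.0854% of all genes passed between the genotypes, none of the genes of these 6 lists did.

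**Figure D5:**
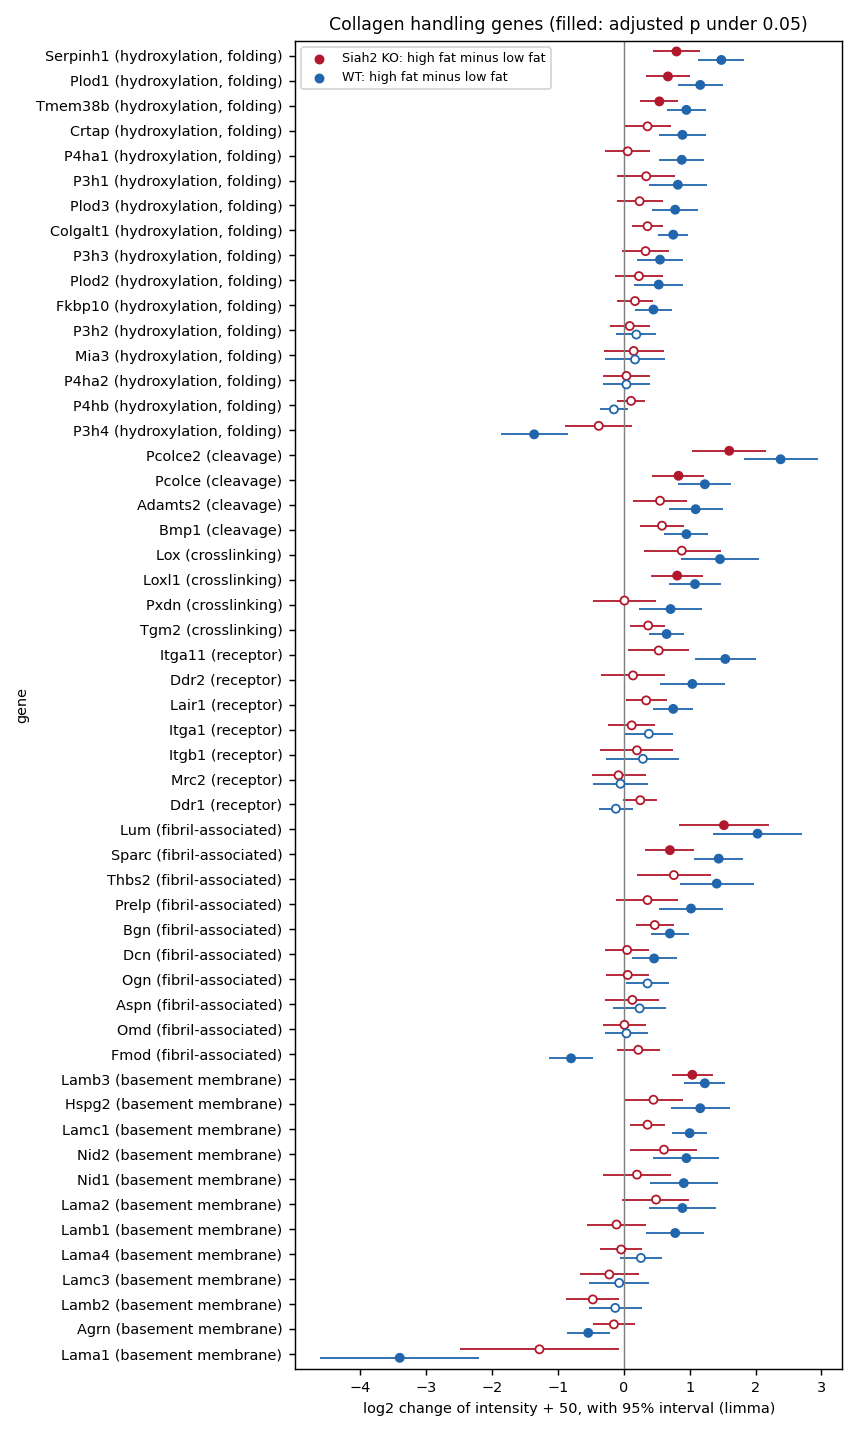
Log2 change of intensity plus 50 from low to high fat for genes that modify, cleave, crosslink, bind or accompany collagen, with 95% intervals from limma, in knockout (red) and in wild type (blue); filled points pass an adjusted p of 0.05. All 8 cleavage and crosslinking genes are filled in wild type, and Lama1 lies at the far left.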

How the data were processed

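The deposited values used in every comparison are normalized intensities, made by the authors with GenomeStudio per the submitters' processing notes; its version and settings are not given in the sources used here. Values were linear, 22.9% were below 0 and array medians lay between 33.3 and 33.6. Deposited tables of raw bead intensities and detection p-values gave gene symbols and, for every probe, on how many arrays it was detected; their array codes are tied to no sample, and 20 signal columns belonged to no sample. Tables were joined by raw signals equal within 0.05. Each array detected 13389 to 15037 probes, and 3 arrays per group limit the precision.

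Probes detected on at least 3 arrays were kept (15765), with the kept probe of highest mean standing for its gene (11705 genes). An offset of 50 was added before log2, which compresses changes of dim genes. A normalized intensity of 27.9, exceeded by 52.1% of values, which is the share of probes the least sensitive array detected, served as the detection level; "at least" folds are computed on intensities without the offset. Symbols other than those of the members were updated through RefSeq identifiers. The fits used limma 3.58.1 (R 4.3.3) with a mean for every group and 8 residual degrees of freedom, two-sided, with Benjamini and Hochberg adjustment over all genes within each of 6 contrasts. P-values measure the spread between pools. These fits were also run on simulated data with known changes.

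The members, gene lists and naming rule were chosen with earlier results of these data known. Named were Col1a1 and Col4a1 throughout, every collagen past the threshold, up to 6 others by size, up to 4 members of each other list in order of p, and Siah2. Alternatives were the offset, the detection filter, the averaging of probes, cyclic loess, the replicate number as a block, the groups compared alone, the epididymal mean as a covariate and leaving out arrays. The result of 1 gene of the basement membrane list is not reported here, and the counts are given without it.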

Additional observations from a re-analysis of the deposited data

Results flagged for a closer look

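The knockout effect on Col7a1, the collagen of anchoring fibrils, was fitted with opposite signs under the diets. On high fat it was 0.32 (SE 0.22, adjusted p = 0.58), with every knockout array above every wild type array, at 33.7, 60.1 and 36.9 against 23.9, 21.8 and 28.1. On low fat it was -1.22 (SE 0.22, adjusted p = 0.0213), with every knockout array below every wild type array, at 104.4, 32.2 and 74.8 against 232.4, 270.6 and 173.1. The high fat wild type mean, 24.6, lay under the detection level of 27.9, so the size and sign on high fat, and the size of the difference, are uncertain. The opposite ordering of all arrays drew attention to this gene. The difference itself was 1.54 (SE 0.31, unadjusted p = 0.000434) and did not pass after adjustment over all genes (adjusted p = 0.0902). Epididymal and seminal vesicle genes were also lower in knockout than in wild type on low fat. With the epididymal mean as a covariate no gene passed for the difference, and its median over the collagens was -0.03, against -0.38. The epididymal means of low fat wild type lay above those of every other group. Tract RNA and the difference therefore cannot be told apart by this fit.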

How the results depend on the processing

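For the diet in wild type 19 or 20 collagens were called when any array was left out, and 15 to 20 under the other alternatives except the epididymal covariate, which left 0. For the diet in knockout, 7 as reported, the counts were 2 with only the groups compared, 0 with the covariate, 2 to 8 with an array left out and 3 with replicate 1 of knockout on low fat and replicate 2 of knockout on high fat both left out, a choice made after seeing the data, where 69 of all genes were called. For knockout on low fat, 3 as reported, they were 1 without the detection filter, 0 with only the groups compared, 0 with the covariate, 0 to 9 with an array left out and 11 with both left out (1768 of all genes). For knockout over both diets, 0 as reported, they were 0 to 1 with an array left out and 5 with both left out. For the difference between diet effects they were 0 to 1 with an array left out, Col7a1 being the gene that passed. No alternative called a collagen for knockout on high fat.

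Of 18 pairs of pools with the same replicate number 3 correlated above 0.1 (range -0.81 to 0.16), on deviations from group means. With 3 arrays per group these deviations are tied to each other, so the values cannot decide whether the numbers pair the pools. With the replicate block 20 collagens were called for diet in wild type, 2 for diet in knockout and 0 for knockout on low fat.

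Signs turned for Col5a3 with diet in wild type (0 with the covariate), Col1a1 for knockout on low fat (-0.04 with the covariate), Col4a1 for knockout on high fat (-0.14 to 0.01 with an array left out, turning without replicate 2 of that group, and 0.01 with both arrays left out) and Col1a1 for knockout over both diets (0.01 with both left out); the cause was not tested. These alternatives were summarised for 37 single-gene values, those past the threshold and those of Col1a1 and Col4a1; of their other values 682 kept sign and call and 115 kept the sign but were no longer called. Outside these, Col15a1 for knockout on low fat (0.0519 as reported) passed with an offset of 100 (adjusted p = 0.0441) and with detection on all 12 arrays (0.0372), and Col5a2 passed with an offset of 16 (0.042). Of the 3 genes reported as called in that comparison, Col4a1 and Col17a1 were not called with an offset of 16. With detection on all 12 arrays only Col4a1 of them was called, as Col7a1 and Col17a1 were detected on 11 arrays and dropped out.

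Cyclic loess moved the median change of all genes with diet in wild type to -0.06, against 0.06, and the called genes to 2040 higher and 2608 lower, against 2663 and 1962. The share of higher calls moved to 38.3%, against 59.7%, for knockout on low fat and to 44.9%, against 61.1%, over both diets. The same 20 collagens were called with diet in wild type, 15 higher and 5 lower. With an offset of 16, values under -15 were set to -15. The fit of only the groups compared was not run for the contrasts over 4 groups, and probes not detected on all arrays give no value under the strictest filter. Dim genes near the detection level, among them Col2a1, Col9a1, Col24a1 and Col25a1, have little signal over background, so changes in them could be missed.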

Other observations

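Col4a3bp, the ceramide transporter that the naming rule also took, averaged 224.7 ± 26.2 in wild type on high fat and 130.3 ± 20.7 on low fat (SD, n = 3 each), and rose by 0.61 (SE 0.12, adjusted p = 0.00338 from limma). In knockout it averaged 189.1 ± 24.2 on high fat and 158.2 ± 11 on low fat, with a change of 0.20 (SE 0.12, adjusted p = 0.478).

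Col26a1, present on the array under an older symbol and therefore outside the rule, was dim, and its arrays differed widely within groups. It read 10.2, 32.0 and 5.42 in knockout on high fat, 79.2, 1.68 and 18.8 in knockout on low fat, 9.66, 12.8 and 0.5 in wild type on high fat, and -3.45, 35.5 and 112.5 in wild type on low fat. No comparison called it.

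Of the 8 collagens with several kept probes, all 8 had probes that changed in the same direction with diet in wild type. Some of these changes were small, so a shared sign says little for them. The probes of Col2a1 changed by 0.12 and 0.07, and the second probe of Col4a4, detected on 3 arrays, by -0.06. For Col18a1 the probe not used for the gene changed by 0.82 (SE 0.14), against 0.57 for the probe used, and for Col4a6 the other kept probe changed by -1.25 (SE 0.28), against -1.08.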
